A study of Homo sapiens with 6 samples.

Results

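CTDSP1, ERI3, RNF126, ZNF703, NOL6, ADAM15 and DCAF7 are 7 human genes, of 19073 with a matched symbol on the array, picked because different probes to the same gene moved in opposite directions. They were measured in HEK293 cells, an established line from human embryonic kidney, 48 hours after transfection. The SNRK cells received a plasmid that codes for human SNRK, a kinase of the AMPK-related family, joined to green fluorescent protein, and the GFP cells received the parent plasmid, which codes for green fluorescent protein alone. Each group had 3 Illumina bead arrays, called SNRK 1 to 3 and GFP 1 to 3, and the labels leave unsaid whether a replicate is a culture of its own. The p-values given here thus rest on array-to-array spread alone, which could be purely technical. The genes were chosen from this very contrast, because their probes moved apart. Their values are therefore given as a description, with no p-value. Only 1381 genes had 2 or more tested probes and could show such moves. In 17 of these, the 7 included, probes passed the test in both directions. The array names 2 of the 7 genes by an older symbol, PRNPIP for ERI3 and WDR68 for DCAF7.

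A bead array probe is a short oligonucleotide that captures labelled RNA copied from 1 stretch of a transcript. Genes are often covered by several probes, which can address different exons, different transcript ends or different splice forms, so probes to the same gene need not follow each other when the mix of transcripts changes. Signals of different probes also depend on how well each one binds, and they do not compare as amounts of RNA. Where each probe lies in its transcript was not analysed here.

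The 7 genes work in different parts of the cell. CTDSP1 is a phosphatase of the tail of RNA polymerase II and helps the repressor REST keep neuronal genes silent in other cells. ZNF703 is a zinc finger corepressor known from luminal breast cancer, and DCAF7 is a WD-repeat scaffold that binds DYRK and HIPK kinases and the CUL4-DDB1 ubiquitin ligase, and has been found in a complex with ZNF703. ERI3 belongs to a family of exonucleases that trim RNA from its tail end. NOL6 is a nucleolar protein of the small subunit processome, which makes the small ribosomal subunit. RNF126 is a ubiquitin ligase that works with BAG6 to clear proteins that failed to reach their membrane, and ADAM15 is a membrane-bound metalloprotease with a disintegrin domain.

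The median deposited intensity lay between 93.8 and 102 on the 6 arrays, and 15133 to 16190 of the 48701 probes were detected on each (detection p under 0.01). Testing used the 14964 probes detected throughout 1 or both groups, meaning on each of the 3 arrays. Of 10 markers set for HEK293 cells 9 were measured, the exception being PAX2, and of 14 markers of blood, endothelium, liver, fibroblasts and heart muscle 3 were (PECAM1, ALB and COL3A1) and did not pass the test. Of the other 11, MYH7 was detected on 1 array and the rest, PTPRC and CDH5 among them, on no array. The SNRK probe read 485, 460.2 and 458 on the SNRK arrays, against 350, 382 and 372 on the GFP arrays (1.35-fold higher, limma adjusted p = 0.0219). Whether that probe addresses the part of the transcript carried by the plasmid was not analysed here. The groups were not equally tight. Among called probes outside the 7 genes, SNRK 3 was the SNRK array nearest to GFP in 56.5%, and GFP 3 was the GFP array nearest to SNRK in 70.4%.

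The 7 genes had 18 probes, of which 15 were kept. The other 3 all belong to ERI3. Of the 15, 7 were called higher and 7 called lower in SNRK cells (limma adjusted p under 0.05), 1 of each for every gene, and 1 ADAM15 probe was not called. Over all kept probes the same calls made up 6.88% (higher) and 6.06% (lower). The groups did not overlap at 14 of the 15 probes, where 36.4% of all kept probes show this. These counts are set by how the genes were chosen. The called probes are named below as the rising and the falling probe of each gene.

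**Figure D1:**
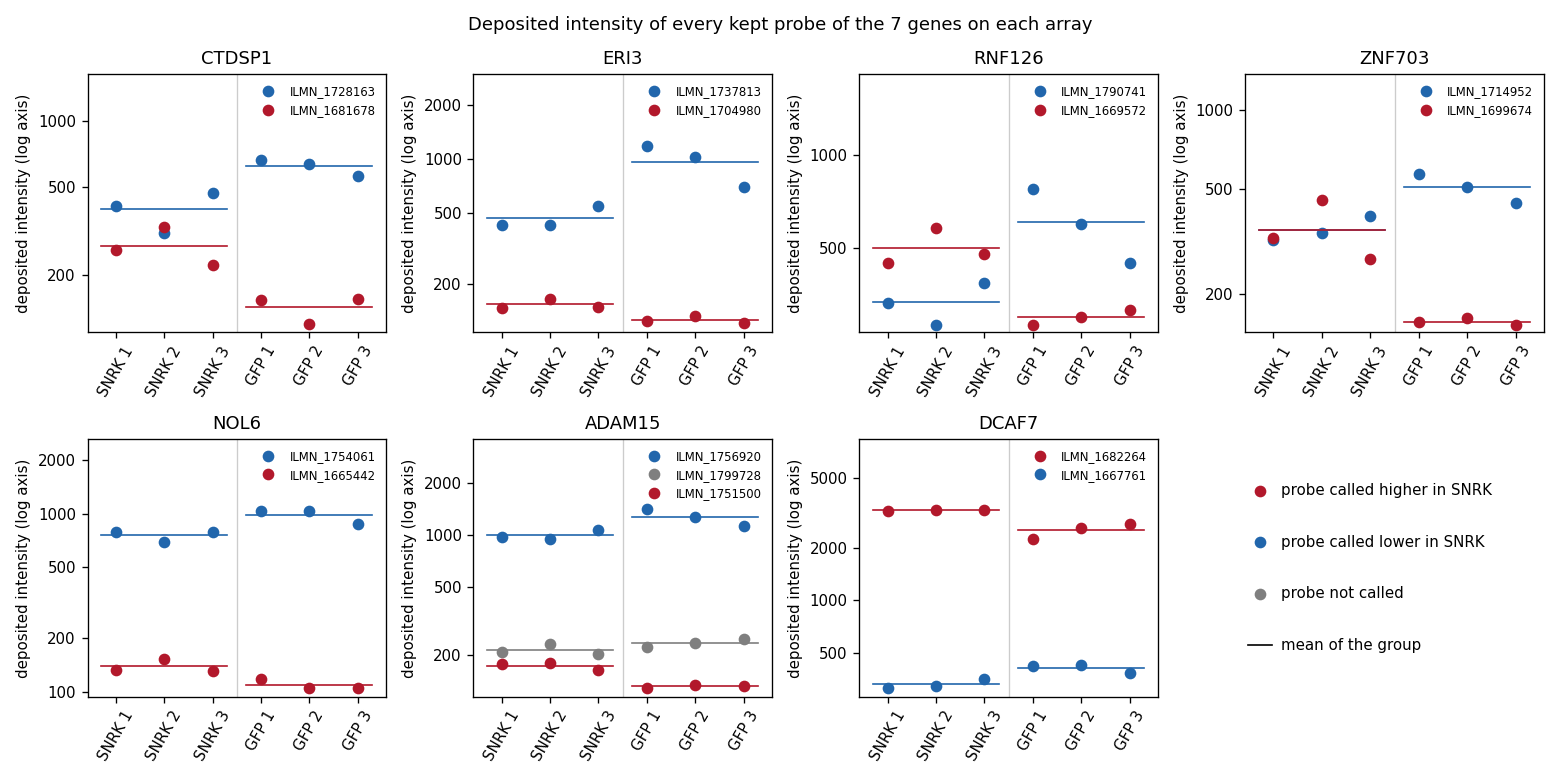
Deposited intensity (log axis) of the 15 kept probes of the 7 genes on each array, SNRK arrays left and GFP arrays right, a point per array and a line at the group mean. Red probes were called higher in SNRK cells, blue probes lower and the grey ADAM15 probe not at all; at every red or blue probe the points of the groups do not overlap.

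CTDSP1, the polymerase phosphatase, had kept probes that differed in direction and, among the GFP arrays on the log2 scale, in steadiness. The rising probe ILMN_1681678 read 259, 330.0 and 222 on SNRK 1, 2 and 3, against 153, 120.2 and 156 on GFP 1, 2 and 3. The falling probe ILMN_1728163 read 411, 310.1 and 471 on the SNRK arrays, against 662, 638 and 564 on the GFP arrays. SNRK 2 was highest at the rising probe and lowest at the falling one, and SNRK 3 was nearest to the GFP arrays at both. After background correction and normalization the rising probe averaged 7.57 ± 0.36 in SNRK and 6.11 ± 0.44 in GFP cells on the log2 scale (SD, 3 arrays each), a log2 change of 1.46 ± 0.24 (SE), or 2.75-fold higher. The falling probe averaged 8.29 ± 0.42 in SNRK and 9.07 ± 0.07 in GFP cells, a log2 change of -0.78 ± 0.19, or 1.72-fold lower. The rise was 0.87 without background correction and 0.54 in the authors' normalized table.

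ZNF703, the corepressor, had the widest divergence of the 7 after this processing, whereas in the authors' normalized table RNF126 did (gaps between the probes of 1.15 for ZNF703 and 1.25 for RNF126). The rising probe ILMN_1699674 read 327, 455 and 272 on the SNRK arrays, against 156, 161 and 153 on the GFP arrays. The GFP arrays agreed closely there and the SNRK arrays did not. The falling probe ILMN_1714952 read 319.6, 340.0 and 395 on the SNRK arrays, against 571, 511 and 445 on the GFP arrays. The rising probe averaged 8.07 ± 0.45 in SNRK and 6.40 ± 0.09 in GFP cells, a log2 change of 1.67 ± 0.20, or 3.17-fold higher. The falling probe averaged 8.09 ± 0.22 in SNRK and 8.74 ± 0.16 in GFP cells, a log2 change of -0.64 ± 0.13, or 1.56-fold lower. In the authors' table these changes were 0.74 and -0.40.

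DCAF7, the scaffold that partners ZNF703 and the DYRK kinases, was the exception among the 7 in that its rising probe was the brighter of the pair. The rising probe ILMN_1682264 read 3245, 3303 and 3303 on the SNRK arrays, against 2240.0, 2603 and 2719.7 on the GFP arrays. The falling probe ILMN_1667761 read 315, 322 and 353 on the SNRK arrays, against 422, 424 and 384 on the GFP arrays. GFP 3 was the GFP array nearest to the SNRK arrays at both. The log2 changes were 0.44 ± 0.11 (1.36-fold higher) and -0.40 ± 0.10 (1.32-fold lower), which are close in size. In the authors' table they were 0.42 and -0.23.

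ERI3, the exonuclease gene, had the deepest fall of any probe of the 7 genes. The falling probe ILMN_1737813 read 427, 428 and 542 on the SNRK arrays, against 1182, 1021 and 695 on the GFP arrays. The spread within GFP cells was wide, and GFP 3 lay nearest to SNRK 3. The rising probe ILMN_1704980 read 146, 165 and 148 on the SNRK arrays, against 123, 132 and 119.9 on the GFP arrays. The falling probe averaged 8.60 ± 0.25 in SNRK and 9.74 ± 0.36 in GFP cells, a log2 change of -1.14 ± 0.19, or 2.20-fold lower. The rising probe averaged 6.21 ± 0.16 in SNRK and 5.70 ± 0.20 in GFP cells, a log2 change of 0.51 ± 0.13, or 1.43-fold higher. That rise was 0.23 without background correction, 0.33 with the maximum likelihood background and 0.12 in the authors' table, where ERI3 was not called in both directions. Of the ERI3 probes that were not kept, ILMN_1700076 was detected on 1 SNRK array and 1 GFP array, and ILMN_1669577 and ILMN_1788288 were detected on no array. They give no fold change.

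NOL6, the processome gene, had a bright falling probe and a rising probe close to background. The rising probe ILMN_1665442 read 133, 154 and 132 on the SNRK arrays, against 119, 106 and 106 on the GFP arrays, and was detected on 3 of 3 SNRK but only 1 of 3 GFP arrays. It was kept through the group in which it was higher. The falling probe ILMN_1754061 read 786, 696 and 791 on the SNRK arrays, against 1033, 1028 and 869.7 on the GFP arrays. The falling probe had a log2 change of -0.36 ± 0.09 (1.28-fold lower). The rising probe had a fitted log2 change of 0.69 ± 0.12, which was 0.27 without background correction, 0.40 with the maximum likelihood background and 0.13 in the authors' table. NOL6 was not called in both directions in that table, and its gap and rank given below rest on this dim probe.

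RNF126, the BAG6-linked ubiquitin ligase, had opposite changes of nearly equal size. The rising probe ILMN_1669572 read 445, 580.5 and 477 on the SNRK arrays, against 279.7, 297 and 315 on the GFP arrays. The falling probe ILMN_1790741 read 331, 281 and 385 on the SNRK arrays, against 774, 596 and 445 on the GFP arrays. SNRK 2 was the highest array at the first and the lowest at the second. The rising probe averaged 8.73 ± 0.23 in SNRK and 7.79 ± 0.17 in GFP cells, a log2 change of 0.94 ± 0.14, or 1.92-fold higher. The falling probe averaged 7.97 ± 0.35 in SNRK and 8.99 ± 0.40 in GFP cells, a log2 change of -1.01 ± 0.22, or 2.02-fold lower. In the authors' table the changes were 0.59 and -0.66.

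ADAM15, the metalloprotease gene, was the only member with 3 kept probes. The rising probe ILMN_1751500 read 178, 179 and 165 on the SNRK arrays, against 129, 135 and 132 on the GFP arrays. The falling probe ILMN_1756920 read 963, 945 and 1067 on the SNRK arrays, against 1409, 1273 and 1121 on the GFP arrays. The highest SNRK array and the lowest GFP array lay close together there. The remaining probe ILMN_1799728 read 208, 232 and 203 on the SNRK arrays, against 223, 237 and 249 on the GFP arrays, and its groups overlapped. The log2 changes were 0.67 ± 0.10 (1.59-fold higher), -0.34 ± 0.09 (1.26-fold lower) and -0.27 ± 0.11 for the probe that was not called. The rise was 0.34 without background correction and 0.18 in the authors' table, where the probe that was not called in the fit above had -0.11.

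**Figure D2:**
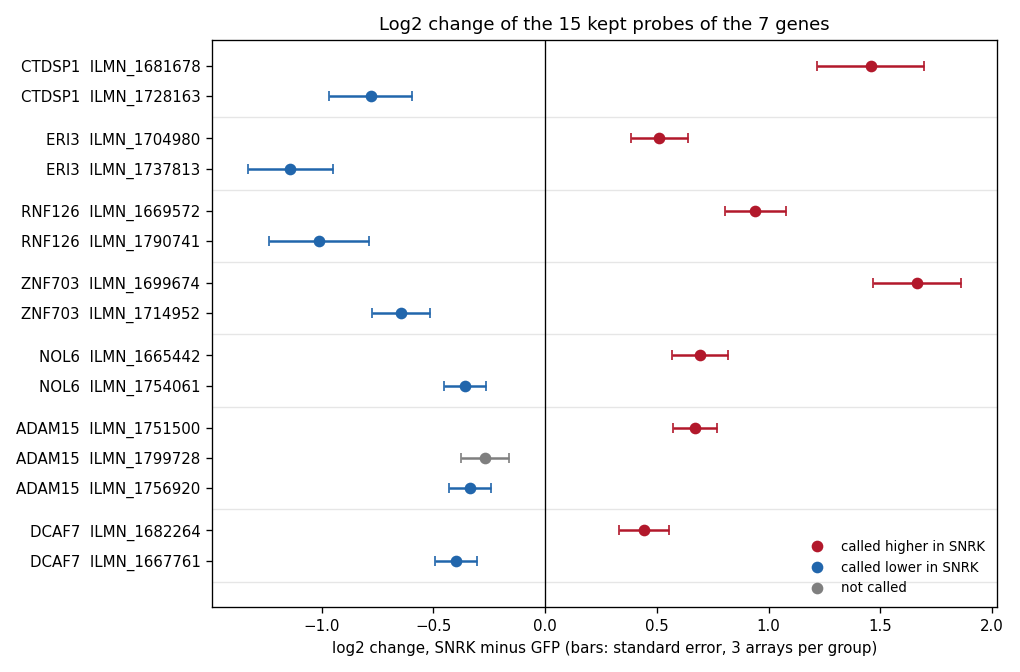
Log2 change (SNRK minus GFP) with its standard error for the 15 kept probes, grouped by gene; 3 arrays per group. Each gene has a called probe on either side of 0, from -1.14 for ERI3 to 1.67 for ZNF703.

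On each array the log2 signal of the falling probe was subtracted from that of the rising probe and set relative to the GFP mean. For ZNF703 this difference was 2.38, 2.88 and 1.67 on SNRK 1, 2 and 3, against -0.25, 0.10 and 0.15 on GFP 1, 2 and 3. For CTDSP1 it was 2.07, 3.08 and 1.56 on the SNRK arrays, against 0.09, -0.51 and 0.42 on the GFP arrays. These are the genes with the widest gaps, and the SNRK arrays of both spread over more than a log2 unit. For RNF126 the difference was 1.73, 2.57 and 1.55 on the SNRK arrays, against -0.55, -0.01 and 0.57 on the GFP arrays. For ERI3 it was 1.61, 1.95 and 1.40 on the SNRK arrays, against -0.49, 0.14 and 0.36 on the GFP arrays. The lowest SNRK array still lay about a log2 unit above the highest GFP array in both. The gaps between group means were 2.31 for ZNF703, 2.24 for CTDSP1, 1.95 for RNF126 and 1.65 for ERI3. They were 1.05 for NOL6, 1.01 for ADAM15 and 0.84 for DCAF7, where the lowest SNRK value was 0.63 and the highest GFP value 0.25. A gap of 2.31 is a 4.96-fold change in the ratio of the probe signals, and one of 0.84 a 1.79-fold change.

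The arrays took nearly the same order in most of the 7 genes. SNRK 2 had the widest difference among the SNRK arrays in 6 of the 7 genes and SNRK 3 the narrowest in 6. Among the GFP arrays, GFP 3 had the widest difference in 6 and GFP 1 the narrowest in 5. Over all 1381 genes with at least 2 kept probes, taken from the probe with the highest to the one with the lowest log2 change, SNRK 2 was widest in 52.6%, SNRK 3 narrowest in 53.0%, GFP 3 widest in 49.2% and GFP 1 narrowest in 48.7%. The same leaning of the arrays is therefore present in the rest of the array, and its part in the values of the 7 genes was not tested.

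**Figure D3:**
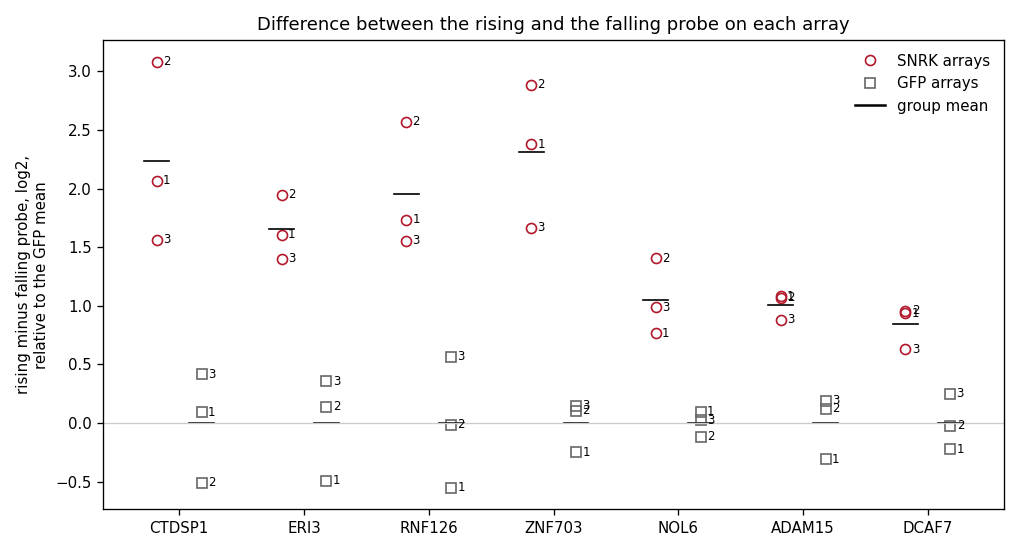
Log2 difference between the rising and the falling probe on each array relative to the GFP mean (vertical axis), by gene; circles are SNRK arrays, squares GFP arrays, digits the replicate number and lines the group mean. All SNRK arrays lie above all GFP arrays in the 7 genes, which their choice sets and which holds for 36.2% of the 1381 genes with several kept probes; SNRK 2 is highest in 6 of the 7.

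The calls of the 7 genes in both directions needed nearly all arrays. Without GFP 1, GFP 2 or SNRK 1, 0 of the 7 genes and 0 of all 1381 with several kept probes had limma calls in both directions. Without SNRK 2 it was 1 of the 7, without GFP 3 it was 3 and without SNRK 3 it was 6, where 6, 13 and 30 genes of the 1381 had such calls. At an unadjusted p under 0.05 in limma all 7 had them in each of these fits, among 31 to 98 genes of the 1381 that did. That is a description, since the 7 were chosen on these arrays. The sign of each of the 15 log2 changes was the same in every one of these fits. At 14 of these probes the groups do not overlap, so leaving out an array could not have changed the sign.

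How the expression of such a gene reads depends on the probe that stands for it. By the brightest kept probe, 6 of the 7 would be lower in SNRK cells and DCAF7 higher. The mean over kept probes was -0.04 for RNF126, 0.02 for ADAM15 and 0.02 for DCAF7, where the opposite changes cancelled. It was 0.51 for ZNF703, 0.34 for CTDSP1, 0.17 for NOL6 and -0.31 for ERI3. For ZNF703, CTDSP1, NOL6 and ADAM15 this mean has the opposite sign to the brightest probe.

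Probes to the same gene often disagreed in sign across the array. The 1381 genes with several kept probes gave 2088 pairs, and 46.3% of pairs had log2 changes of opposite sign, most of them with changes that were not called. Pearson's r between the log2 changes of a pair was 0.14 over the 2088 pairs, which share the same 6 arrays and in part the same genes. Where both probes of a pair were above the median signal, 47.1% of 522 pairs were opposite, and where both were at or below it, 43.3% of 669 pairs. Among the 52 pairs with both probes called, 20 (38.5%) were opposite. Called probes in both directions were found in 17 genes, or 1.23% of the 1381, and these include all 7 described here. At least 1 called probe was found in 19.7% of the 1381.

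The highest minus lowest log2 change within a gene had a median of 0.24 over the 1381 genes and exceeded 1 in 40. By this measure ZNF703 ranked 1, CTDSP1 2, RNF126 3, ERI3 7, NOL6 37, ADAM15 40 and DCAF7 66. The first 3 are the widest on the array in this fit, and DCAF7 has the narrowest gap of the 7. Of the other 10 genes with called probes in both directions, the 5 with the widest gap between a called rise and a called fall were SMARCC2, TFAP2A, PCSK6, VEGFB and TIAL1. SMARCC2, a subunit of the SWI/SNF chromatin remodeller, had log2 changes of 1.37 ± 0.28 and -0.44 ± 0.08. TFAP2A, a transcription factor of ectoderm and neural crest, had 0.96 ± 0.17 and -0.60 ± 0.12. The gaps were 1.81 and 1.56 for these, 1.41 for the proprotein convertase gene PCSK6, 1.34 for the growth factor gene VEGFB and 1.28 for TIAL1, which codes for an RNA-binding protein. The falling probe behind the PCSK6 gap was dim, with a mean log2 signal of 5.38, against 5.57 for the rising NOL6 probe. PCSK6 had 5 kept probes, and the brightest of them had a log2 change of 0.006.

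**Figure D4:**
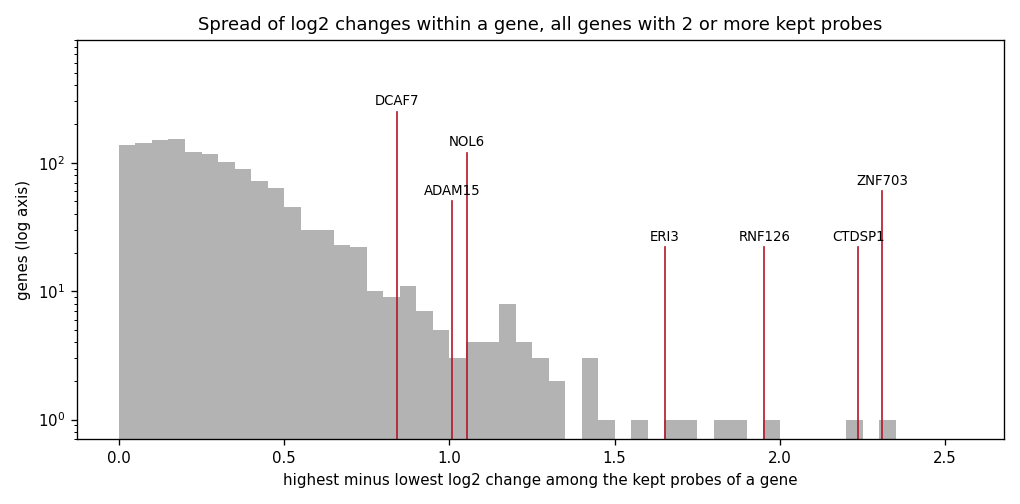
Number of genes (log axis) by the highest minus lowest log2 change among their kept probes, for the 1381 genes with 2 or more kept probes; red lines mark the 7 genes. The median is 0.24, and the 7 genes run from 0.84 for DCAF7 to 2.31 for ZNF703.

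The falling probe was the brighter of the pair in 6 of the 7 genes, and in 6 of the other 10 genes with calls in both directions. Over all called probes the median log2 signal was 7.80 for those called higher and 7.85 for those called lower. Each falling probe of the 7 genes was brighter than 56.7% or more of kept probes. The rising probes ranged from NOL6, brighter than 9.78% of kept probes, to DCAF7, brighter than 93.2%. Of the 7 genes, 6 (all but ZNF703) were matched to the RefSeq table of promoter windows (GRCh38.p14). It lists 7 windows for CTDSP1, 2 for ERI3 and 1 each for the other 4, and 1 window is also listed for 59.5% of the 1118 genes with several kept probes that it holds.

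Genes that work with the 7 or are related to them were read from their brightest kept probe, as lists of 130 genes in all of which 116 were measured. SNRK cells had 11 of them higher and 11 lower, 9.48% in each direction, where over all 11044 named genes 7.3% were higher and 5.74% lower. The counts fell to 2 higher and 0 lower without GFP 1, GFP 2 or SNRK 1, and to 5 and 3 without SNRK 2. At an unadjusted p under 0.05 in limma there were then at least 14 higher and 19 lower. The share of all named genes at that threshold is not given here, so these counts do not set the partner genes apart from other genes. All adjusted p-values below are from limma over all kept probes, and the median log2 change over all named genes was -0.0026. In the authors' table several changes were smaller, such as 0.24 for CTDP1, 0.43 for FURIN, 0.22 for RRP9, -0.33 for PWP2, -0.38 for REXO1, -0.22 for TREX1, -0.16 for ISG20, -0.41 for BAG6, -0.16 for ADAM19 and -0.21 for RHBDF1.

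Of 11 measured phosphatase and partner genes listed for CTDSP1, 3 rose and the other 8 did not pass, with a list median of 0.07. CTDNEP1, a phosphatase of the nuclear envelope, rose by 0.93 ± 0.14 on the log2 scale (adjusted p = 0.00749). CTDP1, a phosphatase that recycles the polymerase, rose by 0.56 ± 0.11 (adjusted p = 0.0169), and the REST corepressor gene RCOR1 by 0.60 ± 0.14 (adjusted p = 0.0314). RCOR1 was detected on 3 SNRK but only 2 GFP arrays and so was kept through the group in which it is higher. Its change was 0.24 without background correction and 0.12, not called, in the authors' table. Of 11 measured relatives and corepressor partners of ZNF703, 3 rose and 8 did not pass, with a median of 0.02. Among those that rose were the Groucho family genes TLE3 (0.61 ± 0.14, adjusted p = 0.0314) and TLE5 (0.36 ± 0.09, adjusted p = 0.0316).

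Of 24 measured genes of the CUL4-DDB1 ligase and the kinases that bind DCAF7, 2 rose and 22 did not pass, with a median of -0.06. The kinase gene DYRK1B, whose product binds DCAF7, rose by 1.37 ± 0.24 (adjusted p = 0.0141), and its spread was wide, with intensities of 964, 1265 and 679 on the SNRK arrays, against 375, 395 and 482 on the GFP arrays. DCAF4, another substrate receptor of the ligase, rose by 0.36 ± 0.08 (adjusted p = 0.0282).

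Of 11 measured exonuclease genes related to ERI3, 1 rose and 3 fell, with a median of -0.15. REXO1 fell by 0.81 ± 0.16 (adjusted p = 0.0189). TREX1, which degrades stray DNA in the cytosol, fell by 0.46 ± 0.12 (adjusted p = 0.0461) and had 0.17 at its other kept probe, which was not called. ISG20 fell by 0.34 ± 0.08 (adjusted p = 0.0281) and ISG20L2 rose by 0.33 ± 0.09 (adjusted p = 0.0476). The ISG20L2 rise did not pass with median scaling (0.26) or cyclic loess (0.31) in place of quantile normalization. Of 34 measured genes of the small subunit processome, to which NOL6 belongs, 1 rose and 4 fell, with a median of -0.14. PWP2, a WD-repeat subunit, fell by 0.80 ± 0.19 (adjusted p = 0.0301), UTP4 by 0.40 ± 0.10 (adjusted p = 0.0407) and NOP58 by 0.36 ± 0.09 (adjusted p = 0.0343), while RRP9 rose by 0.43 ± 0.09 (adjusted p = 0.0232). The NOP58 fall did not pass with median scaling. CSNK2A1, a catalytic subunit gene of casein kinase 2, fell by 0.35 ± 0.09 (adjusted p = 0.0413) and had 0.12 at its other kept probe. It was named after its value was seen.

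Of 13 measured genes of BAG6 quality control, in which RNF126 acts, 2 fell and 11 did not pass, with a median of -0.03. BAG6 itself, the chaperone that holds stray membrane proteins, fell by 0.69 ± 0.17 (adjusted p = 0.0382), and the ubiquilin gene UBQLN4 by 0.49 ± 0.10 (adjusted p = 0.0223). Of 13 measured metalloprotease disintegrins and their regulators, 1 rose and 2 fell, with a median of -0.10. FURIN, the protease that removes the prodomain of many of them, rose by 0.99 ± 0.13 (adjusted p = 0.00542), and read 311, 298 and 253 on the SNRK arrays, against 176, 168 and 191 on the GFP arrays. ADAM19 fell by 0.46 ± 0.09 (adjusted p = 0.0169), and RHBDF1, a partner of ADAM17, by 0.36 ± 0.09 (adjusted p = 0.0423).

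**Figure D5:**
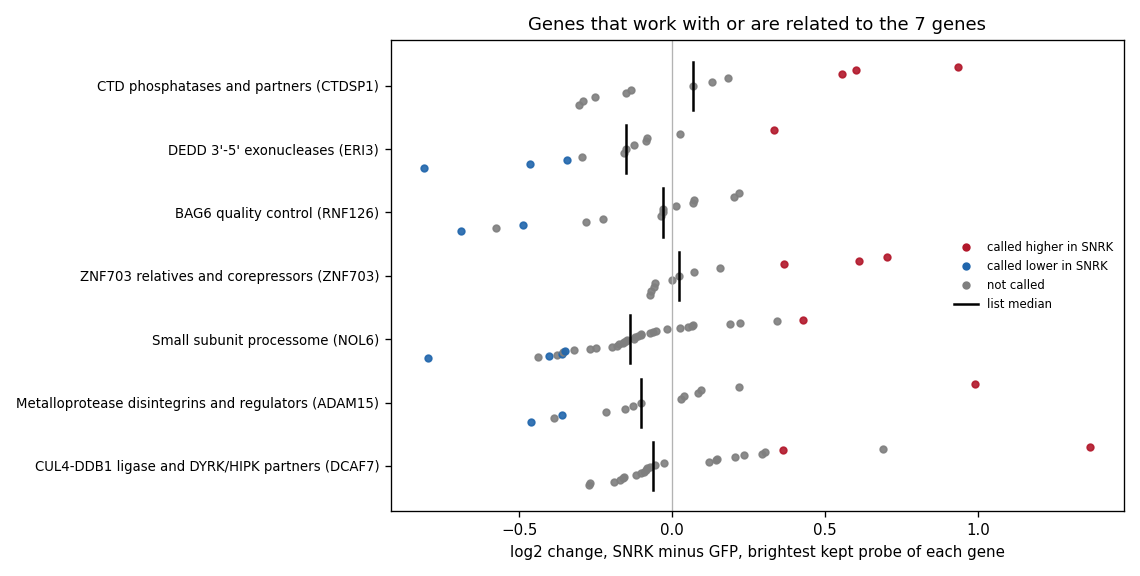
Log2 change (SNRK minus GFP) of each measured gene in the 7 lists, by its brightest kept probe; red points were called higher, blue lower and grey not called, and black lines are list medians. The medians run from -0.15 for the exonucleases to 0.07 for the phosphatase and partner genes listed for CTDSP1, and DYRK1B, at 1.37, is the point farthest right.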

How the data were processed

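Total RNA was converted to biotin-labelled cRNA and read on Illumina bead arrays, per the labels' protocols. The authors deposited a table with a linear signal intensity, not normalized between arrays, and a detection p-value for each probe and array. A second deposited table holds the authors' normalized intensity as whole numbers, and the submitters' processing notes name lumi; how it was run was not stated there. By Illumina's design a detection p-value sets a probe against the negative controls of its array. The number of arrays limits the precision.

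From the deposited intensities, limma 3.58.1 under R 4.3.3 did the rest: normal-exponential background correction with controls inferred from the detection p-values (neqc, offset 16), quantile normalization, log2, and a linear model on the group with eBayes. Two-sided p-values were Benjamini-Hochberg adjusted over the 14964 kept probes. The fit was tested on simulated data. The simulated noise was independent between probes and arrays, so that test cannot speak to the leaning of the arrays described above. Current symbols came from a RefSeq table (GRCh38.p14, used for names and the number of promoter windows), which matched 24672 of 48701 probes. The 7 genes, the partner lists and the markers were chosen with earlier results of these data known. From each list up to 4 called genes with the smallest p were named, except 1 that is not reported here and with 1 more (CSNK2A1) added after its value was seen, and outside the 7 genes the 5 with the widest gap between called probes. Probe sequences were not used here. Alternatives were other background corrections and normalizations, detection filters, a replicate block, trend and robust moderation, the authors' table, any kept probe of a partner gene, and leaving out each array.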

Additional observations from a re-analysis of the deposited data

How the results depend on the processing

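The 15 log2 changes of the 7 genes had the same sign in every alternative that fitted them. Detection on all 6 arrays left out the rising NOL6 probe. The detection filters, the replicate block and the moderation leave a log2 change as it is, so they could not change a sign. Leaving out an array could not change it where the groups do not overlap, at 14 of the 15 probes. The size of the changes did not hold. In the authors' table the rising changes were 0.54 for CTDSP1, 0.12 for ERI3, 0.13 for NOL6 and 0.18 for ADAM15. There 5 of the 7 genes, without ERI3 and NOL6, were called in both directions. Without background correction the gaps were 1.52 for CTDSP1, 1.24 for ERI3, 1.64 for ZNF703, 0.60 for NOL6 and 0.65 for ADAM15, and with the maximum likelihood background 0.75 for NOL6 and 0.79 for ADAM15. In the authors' table they were 1.06 for CTDSP1, 0.98 for ERI3, 1.25 for RNF126, 1.15 for ZNF703, 0.42 for NOL6 and 0.47 for ADAM15. That table has a median of 170 on every array, and the ERI3 probe ILMN_1788288, detected on no array, reads 154 to 159 in it. The cause of the smaller gaps in the authors' table was not tested. RNF126 is the widest there, and without background correction its 1.59 passes CTDSP1. With 1 array left out the gaps ran from 1.81 to 2.58 for CTDSP1, 1.41 to 1.83 for ERI3, 1.64 to 2.24 for RNF126, 2.02 to 2.63 for ZNF703, 0.88 to 1.20 for NOL6, 0.86 to 1.10 for ADAM15 and 0.73 to 0.97 for DCAF7.

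Counts depended on the arrays and on the test. With 1 array left out, 121 to 1403 probes were called higher and 170 to 1309 lower, genes called in both directions numbered 0 to 30, the 7 genes among them 0 to 6, and partner genes 2 to 14 higher and 0 to 14 lower (limma; at an unadjusted p under 0.05, 31 genes or more in both directions, all 7 among them). Without the detection filter, with more probes tested, 349 and 320 probes were called, 1 gene in both directions and 0 of the 7, and 3 partner genes higher and 2 lower. With the replicate block the numbers were 374 and 357 probes, 4 genes in both directions, 1 of the 7, and 4 and 1 partner genes. Replicate numbers did not pair the arrays (correlations of deviations between same-numbered arrays -0.059, -0.128 and -0.297, none the best for its array). Genes in both directions numbered 28 without background correction and 32 with trend and robust moderation, and 11 counting only genes with exactly 2 kept probes, a choice made after seeing the data. Partner genes called lower numbered 19 without background correction, with the maximum likelihood background, with trend and robust moderation and in the authors' table.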
